A study of Mus musculus with 8 samples.

Results

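Disallowed genes are genes that most tissues express and that mature beta cells keep low. The 10 described here are Ldha, Slc16a1, Acot7, Mgst1, Lmo4, Zfp36l1, Igfbp4, Cxcl12, Rest and Arap2. They were taken by symbol from a count table of 24537 genes, in which each was found once, and all 10 passed the filter on low counts. Polyadenylated RNA was sequenced from islets of 12-week-old male mice, in 4 Wfs1KO and 4 WT samples, and the islets of both genotypes had been freed with collagenase and purified on a density gradient. Wolframin, the product of Wfs1, sits in the membrane of the endoplasmic reticulum, and mutations in its gene cause Wolfram syndrome, which includes diabetes. The labels give neither the strain nor how the Wfs1 allele was made, and they do not say whether 1 sample is 1 animal.

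A beta cell senses glucose by burning it in mitochondria. Lactate dehydrogenase A (Ldha) would divert pyruvate to lactate, and the carrier MCT1 (Slc16a1) would let pyruvate and lactate from the blood start insulin release, for example in exercise. Both are therefore kept low, Ldha in part by DNA methylation of its promoter and Slc16a1 in part by microRNAs of the miR-29 family in mouse islets. The same genes are well expressed by the endothelial, stromal and immune cells that come along with islets, so in whole-islet RNA their level is read beside markers of those cells. In bulk samples, more of such cells and more of a gene's RNA per cell cannot be told apart.

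The promoters of Ldha and Slc16a1, the classical pair of disallowed genes, are shown as RefSeq gives them in GRCm38.p6, from 250 bases before to 50 bases after the start of the gene. The Ldha window is chr7:46845554-46845853 and that of Slc16a1 is chr3:104638414-104638713, both on the plus strand. Capitals mark ACGTG, a form of the core of the element bound by hypoxia-inducible factor, read on either strand. CACGTG thus matches on both strands and is counted as 1 place. Other forms of the core, such as GCGTG, were not marked or counted.
Ldha promoter: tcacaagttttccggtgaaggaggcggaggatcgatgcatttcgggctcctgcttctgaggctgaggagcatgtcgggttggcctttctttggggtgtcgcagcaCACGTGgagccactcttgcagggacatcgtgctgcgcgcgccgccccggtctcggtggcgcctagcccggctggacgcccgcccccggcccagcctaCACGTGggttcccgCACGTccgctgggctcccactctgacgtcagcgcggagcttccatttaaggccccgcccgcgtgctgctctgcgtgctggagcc
Slc16a1 promoter: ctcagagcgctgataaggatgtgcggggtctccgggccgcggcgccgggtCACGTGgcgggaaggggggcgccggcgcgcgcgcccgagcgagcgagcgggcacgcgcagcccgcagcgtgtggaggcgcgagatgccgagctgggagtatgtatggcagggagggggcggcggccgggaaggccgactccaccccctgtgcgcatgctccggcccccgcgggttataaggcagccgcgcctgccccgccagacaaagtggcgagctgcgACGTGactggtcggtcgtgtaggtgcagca

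These letters stood at 3 places in the Ldha window and at 2 in that of Slc16a1. They were in 2 of the 8 windows that could be used, against 19.6% of 32851 windows of the same length. Rest had no entry, and the Acot7 window began 7508 bases from the start in the count table and was not used. The ratio of observed to expected CpG, the dinucleotide that DNA methylation acts on, ran from 0.607 to 1.06 in the 8 windows, all above the median of 0.384 over all windows. A match is a description of letters, and neither methylation nor binding of a factor was measured.

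The miR-29 sequences are shown because this family is the best known brake on Slc16a1 in mouse beta cells. Capitals mark the seed, bases 2 to 8, which the 3 members share, and in the site the 7 bases that pair with it. The 3′ UTR of Slc16a1 (2740 bases, GENCODE, GRCm38) held 1 such site, whose 7 bases start at UTR base 74. The stretch printed below, the site with its flanking bases, is chr3:104655781-104655807 (plus strand). The microRNAs themselves were not measured here.
mmu-miR-29a-3p: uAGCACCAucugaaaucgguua
mmu-miR-29b-3p: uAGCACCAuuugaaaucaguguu
mmu-miR-29c-3p: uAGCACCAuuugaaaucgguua
Slc16a1 3′ UTR site: cctctagtctaccagTGGTGCTcagtg

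The gene named in the genotype label was checked first. Wfs1 had 101, 105, 125 and 98.9 CPM (counts scaled to library size, with TMM factors) in Wfs1KO replicates 1 to 4, against 182, 156, 190 and 188 CPM in WT replicates 1 to 4, so its RNA was lower in every Wfs1KO library but not absent. Libraries held 15810830 to 27057617 exon counts, and 1 count was worth 0.0350 to 0.0675 CPM. Of the beta cell markers, Ins2 was abundant in all libraries, at 58208 to 75440 CPM in Wfs1KO and 101225 to 135787 CPM in WT islets. Mafa was at 19.2 to 28.2 CPM in Wfs1KO and 107 to 137 CPM in WT islets. Of the 10 beta markers 8 fell, against 8.49% of all tested genes, and 1, Iapp, rose, against 10.4%. Iapp had a log2 fold change of 0.24 (edgeR's adjusted p = 0.0398) and was called in 1 of 8 sets with 1 library left out. Wfs1KO replicate 1 stood apart: it was the highest of the 8 libraries for 9 of the 10 disallowed genes, for 10 of 12 macrophage markers and for 6 of 12 stromal markers. WT replicate 4 was the highest for 5 of the other stromal markers, among them Col1a1 and Col3a1. Wfs1KO replicate 2 shared some of these high values, as of the fibroblast gene Dcn, which was chosen after its values were seen. Dcn was at 45.1 and 28.2 CPM in Wfs1KO replicates 1 and 2 and at 3.64 and 7.13 CPM in Wfs1KO replicates 3 and 4, against 3.73 to 8.20 CPM in WT islets. The 10 genes are therefore given with and without Wfs1KO replicates 1 and 2.

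All 10 genes had a log2 fold change above 0 in Wfs1KO islets, as did 8283 of all 15733 tested genes. Without Wfs1KO replicate 1, Slc16a1 was at -0.25. Of the 10 genes, 2 passed the test over all libraries. Lmo4 and Zfp36l1 rose, and none fell. Of all 15733 tested genes, 10.4% rose and 8.49% fell (edgeR's quasi-likelihood test, Benjamini-Hochberg adjusted p under 0.05, here and wherever a gene is said to rise or fall). The median log2 fold change of the 10, Wfs1KO over WT, was 0.53, and that of all tested genes was 0.01. At an unadjusted p under 0.05 there were 6 of the 10 and 4893 of all 15733 tested genes. Zfp36l1 and Igfbp4 were the 2 of 10 with every Wfs1KO library above every WT library, a pattern that 12.3% of tested genes shared. Together the 10 genes summed to 138, 99.2, 72.3 and 82.4 CPM in Wfs1KO replicates 1 to 4, against 57.0, 70.4, 57.5 and 62.4 CPM in WT replicates 1 to 4. The 4 Wfs1KO sums thus lay above the 4 WT sums, with Wfs1KO replicate 1 far ahead of the rest.

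**Figure D1:**
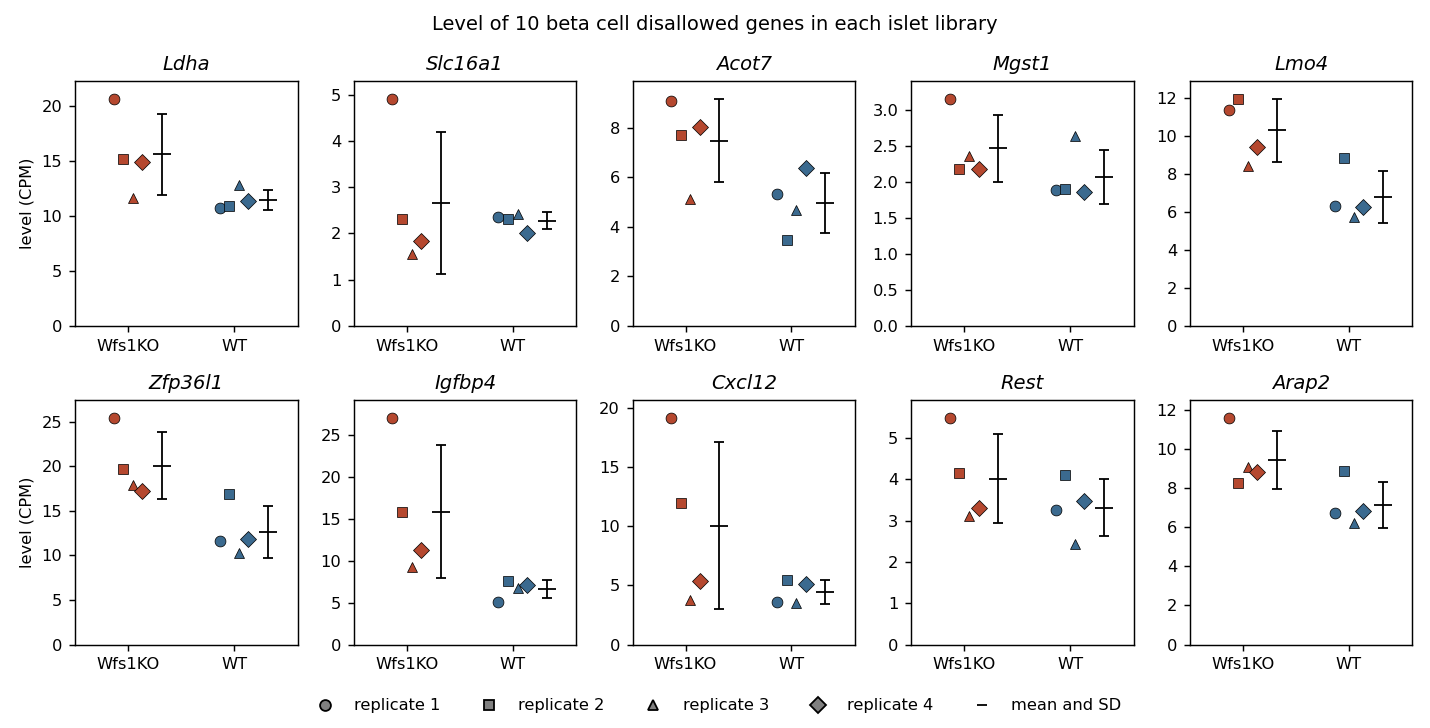
Level (CPM, linear axis from 0) of each of the 10 disallowed genes in the 4 Wfs1KO (left, red) and 4 WT (right, blue) islet libraries; symbols are replicate numbers, and bars are the mean and SD (n = 4 each). Wfs1KO replicate 1 was the highest of all 8 libraries for 9 of the 10 genes, the exception being Lmo4, and Zfp36l1 and Igfbp4 did not overlap between genotypes.

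Per length of exon, the disallowed genes were low to middling in WT islets. Ldha, the most abundant, was at 9.69 ± 2.31 RPKM in Wfs1KO and 7.11 ± 0.584 RPKM in WT islets (CPM per kilobase of exon, SD, n = 4 each), near the middle of all tested genes in WT (percentile 49.6). Zfp36l1, Lmo4, Acot7 and Igfbp4 followed at WT means of 4.25, 4.00, 3.34 and 3.23 RPKM, and with SDs of 0.530 to 0.969 no neighbours in this order differed beyond their spread. Mgst1 was at 2.21 ± 0.399 RPKM in WT islets. Arap2, Cxcl12 and Rest, at 0.978, 0.785 and 0.779 RPKM in WT islets, likewise overlapped within their spread, and Slc16a1 was the lowest at 0.600 ± 0.346 RPKM in Wfs1KO and 0.515 ± 0.0418 RPKM in WT islets (percentile 11.3 in WT).

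Of the 4 metabolic genes, none passed the test over all libraries. Ldha (chromosome 7, 46845804 to 46855627, mm10, plus strand) had 20.7, 15.2, 11.7 and 14.9 CPM in Wfs1KO replicates 1 to 4, against 10.8, 10.9, 12.8 and 11.4 CPM in WT replicates 1 to 4. The WT libraries were tight, and 3 Wfs1KO libraries lay above all of them while Wfs1KO replicate 3 lay inside their range. The log2 fold change was 0.46 (SE 0.15, edgeR's adjusted p = 0.0513), which misses the threshold narrowly. It was 0.29 without Wfs1KO replicate 1 (adjusted p = 0.102) and 0.56 without Wfs1KO replicate 3, the only library whose removal made it a call (adjusted p = 0.00478).

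Slc16a1 (chromosome 3, 104638664 to 104658462, plus strand) rested on few reads, 27 to 140 counts per library in Wfs1KO and 36 to 45 in WT islets. It had 4.90, 2.32, 1.56 and 1.83 CPM in Wfs1KO replicates 1 to 4, against 2.37, 2.31, 2.43 and 2.01 CPM in WT replicates 1 to 4. A single library was high: Wfs1KO replicate 1 stood at 2.15 times the WT mean, and the other 3 Wfs1KO libraries together at 0.835 times. The log2 fold change of 0.25 (SE 0.32, edgeR's adjusted p = 0.666) turned to -0.25 without Wfs1KO replicate 1 (SE 0.24, adjusted p = 0.541). In no other Wfs1KO library was Slc16a1 above the WT range.

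The partners of these 2 genes in handling pyruvate and lactate showed no called change. Of 8 genes, among them Ldhb, the other lactate dehydrogenase subunit gene, and Mpc1 and Mpc2, the mitochondrial pyruvate carrier, 0 passed edgeR's test in either direction, and their median log2 fold change was 0.05. Bsg, which encodes the chaperone that brings MCT1 to the membrane, was the most abundant at 249 RPKM in Wfs1KO and 253 RPKM in WT islets (log2 fold change -0.03, SE 0.07, adjusted p = 0.85).

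Acot7 (chromosome 4, 152178100 to 152271855, plus strand), which encodes a cytosolic thioesterase that cleaves fatty acyl-CoA, had 9.07, 7.69, 5.14 and 8.02 CPM in Wfs1KO replicates 1 to 4. In WT replicates 1 to 4 it had 5.31, 3.46, 4.66 and 6.38 CPM. The genotypes overlapped through Wfs1KO replicate 3, and the log2 fold change was 0.60 (SE 0.20, edgeR's adjusted p = 0.0565). With the replicate number as a block it passed the test (0.60, SE 0.17, adjusted p = 0.0271), as it did without Wfs1KO replicate 3 (0.0110) or WT replicate 4 (0.0248). With that block 3 of the 10 genes rose, Acot7, Lmo4 and Zfp36l1, against 10.2% of all genes. Of the 6 other thioesterase genes, 1 fell: Acot11, the most abundant of them, had 137 ± 6.13 CPM in Wfs1KO and 232 ± 17.2 CPM in WT islets (log2 fold change -0.76, adjusted p = 2.8e-06).

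Mgst1 (chromosome 6, 138140537 to 138156752, plus strand), a membrane-bound glutathione transferase that protects against lipid peroxides, had 3.15, 2.18, 2.37 and 2.18 CPM in Wfs1KO replicates 1 to 4, against 1.89, 1.90, 2.63 and 1.87 CPM in WT replicates 1 to 4. The ranges overlapped, with WT replicate 3 above 3 Wfs1KO libraries. Its log2 fold change was 0.26 (SE 0.22, edgeR's adjusted p = 0.467), and that of its relative Mgst3 was 0.28 (adjusted p = 0.142).

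The 2 genes that rose are both regulators of gene expression. Lmo4 (chromosome 3, 144188530 to 144205255, minus strand) encodes a LIM-only protein that competes with LIM transcription factors for their cofactor LDB1. It had 11.4, 12.0, 8.42 and 9.45 CPM in Wfs1KO replicates 1 to 4, against 6.31, 8.83, 5.74 and 6.28 CPM in WT replicates 1 to 4. All Wfs1KO libraries but replicate 3 lay above the highest WT library, which was WT replicate 2. The log2 fold change was 0.60 (SE 0.15, edgeR's adjusted p = 0.0115). It passed the test with each of the 8 libraries left out in turn, at log2 fold changes of 0.53 to 0.76 and adjusted p-values of 0.00247 to 0.0435.

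Among the other LIM-only genes and LMO4's partners, 3 of 6 rose and 1 fell. Lmo1 had 7.81, 8.76, 8.02 and 9.996 CPM in Wfs1KO replicates 1 to 4, against 3.36, 3.002, 2.43 and 2.01 CPM in WT replicates 1 to 4, with no overlap (log2 fold change 1.67, SE 0.16, edgeR's adjusted p = 1.35e-05). Its fold change was larger than that of any of the 10 disallowed genes. Ldb2 and Lmo2 rose by log2 fold changes of 0.68 and 0.56 (adjusted p = 0.00562 and 0.0334), and Lmo2 kept its call in 3 of the 8 sets with 1 library left out (adjusted p up to 0.109). Both are known from endothelial and blood cells. Ldb1 (its value was known when it was named) fell by 0.19 on the log2 scale (adjusted p = 0.0426, up to 0.149 and called in 2 of the 8 such sets). Isl1, the LIM factor that LDB1 serves in islet cells, was the most abundant of the list at 68.8 RPKM in Wfs1KO and 73.5 RPKM in WT islets (log2 fold change -0.09, adjusted p = 0.297).

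Zfp36l1 (chromosome 12, 80107760 to 80113013, minus strand) encodes an RNA-binding protein of the TIS11 family, which marks AU-rich messenger RNAs for decay. It had 25.5, 19.6, 17.9 and 17.2 CPM in Wfs1KO replicates 1 to 4, against 11.6, 16.9, 10.3 and 11.9 CPM in WT replicates 1 to 4, so that the genotypes did not overlap. Its log2 fold change was 0.67 (SE 0.17, edgeR's adjusted p = 0.0176). Leaving out WT replicate 1 or WT replicate 4 ended the call (adjusted p = 0.0560 and 0.0569), with the fold change still at 0.53 or more in all 8 sets. In GENCODE the longest overlap of a Zfp36l1 exon with an exon of the antisense gene Gm26669 is 1490 bases. Reads in such a stretch cannot be assigned to either gene because no strand option was used in counting. The exon length of Zfp36l1 in the count table is 2980 bases, and the share of it that overlaps was not computed. Its relatives Zfp36 and Zfp36l2 had log2 fold changes of 0.35 and 0.20 (adjusted p = 0.188 and 0.0942).

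Rest (chromosome 5, 77265494 to 77283697, plus strand) encodes the repressor that silences neuronal genes outside neurons and endocrine cells, and its absence lets beta cells use such genes. It had 5.50, 4.16, 3.12 and 3.32 CPM in Wfs1KO replicates 1 to 4, against 3.26, 4.10, 2.43 and 3.48 CPM in WT replicates 1 to 4. The genotypes overlapped widely (log2 fold change 0.28, SE 0.21, edgeR's adjusted p = 0.406), and without Wfs1KO replicate 1 the value was 0.09. Of 8 genes of REST's co-repressor complexes, 2 fell and 0 rose: Rcor3 (log2 fold change -0.26, adjusted p = 0.00911) and Rcor2 (-0.40, adjusted p = 0.0220, called in 5 of the 8 sets with 1 library left out).

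Genes that REST is known to silence moved in both directions. Of 12 such genes, 4 fell and 2 rose, with a list median of -0.15. Gjd2, which encodes the gap junction protein connexin 36 that couples beta cells, had 247 ± 13.9 CPM in Wfs1KO and 395 ± 38.2 CPM in WT islets (log2 fold change -0.68, edgeR's adjusted p = 3.14e-05). Mapk8ip1, a scaffold of JNK signalling, fell by 0.35 on the log2 scale, and Syt4, a synaptotagmin of maturing beta cells, rose by 0.37 (adjusted p = 0.00253 and 6.64e-04). Syt7 and Bsn (which fell) and Stmn3 (which rose) complete the 6 and were named after their values were seen. In the same libraries 8 of 10 beta cell markers fell and 1 rose, and the part of this in the REST targets was not tested.

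The genes of the 2 secreted factors had the largest log2 fold changes of the 10, and their Wfs1KO libraries were uneven. Igfbp4 (chromosome 11, 99041260 to 99052643, plus strand), which binds insulin-like growth factors, had 27.0, 15.82, 9.23 and 11.3 CPM in Wfs1KO replicates 1 to 4, against 5.10, 7.62, 6.75 and 7.12 CPM in WT replicates 1 to 4. All 4 Wfs1KO libraries lay above all 4 WT libraries, and they varied far more among themselves, with a coefficient of variation of 50.2% in Wfs1KO and 16.4% in WT islets. The log2 fold change was 1.27 (SE 0.37, edgeR's adjusted p = 0.0541). Without the highest library, Wfs1KO replicate 1, it was smaller and less variable and passed the test (0.87, SE 0.18, adjusted p = 0.00700), and it also passed without Wfs1KO replicate 3 (adjusted p = 0.0246). Of the other IGF-binding protein genes, 3 of 6 were tested and 1 rose: Igfbp3 had 125 ± 8.14 CPM in Wfs1KO and 89.9 ± 4.72 CPM in WT islets (log2 fold change 0.48, adjusted p = 1.1e-04). The most abundant, Igfbp7, a vascular gene, had a log2 fold change of -0.02 (adjusted p = 0.873).

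Cxcl12 (chromosome 6, 117168535 to 117181368, plus strand), a chemokine made mainly by stromal and endothelial cells, had 19.2, 12.0, 3.75 and 5.34 CPM in Wfs1KO replicates 1 to 4, against 3.63, 5.48, 3.51 and 5.15 CPM in WT replicates 1 to 4. Wfs1KO replicates 1 and 2 were high, and replicates 3 and 4 lay in the WT range. With all libraries the log2 fold change was 1.20 (SE 0.55, edgeR's adjusted p = 0.198); it was 0.66 without Wfs1KO replicate 1, and 0.04 without Wfs1KO replicates 1 and 2. Of the genes for its receptors CXCR4 and ACKR3 and for DPP4, the protease that cleaves it, 0 of 3 passed the test.

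Arap2 (chromosome 5, 62602446 to 62766177, minus strand), a GTPase-activating protein for ARF6, had 11.6, 8.27, 9.12 and 8.86 CPM in Wfs1KO replicates 1 to 4, against 6.73, 8.89, 6.21 and 6.82 CPM in WT replicates 1 to 4. WT replicate 2 reached into the Wfs1KO range, and the other 3 WT libraries lay below it. Its log2 fold change was 0.41 (SE 0.14, edgeR's adjusted p = 0.0564), and it passed the test without WT replicate 2 (adjusted p = 0.0175). Of its 2 relatives, Arap3, known from blood vessels, rose (0.34, adjusted p = 0.00811), and Arap1 had a value of 0.05 (adjusted p = 0.631).

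The count of genes that rose depended on the libraries compared. In replicates 1 and 2 of both genotypes alone, 5 of 10 rose (Ldha, Acot7, Lmo4, Zfp36l1 and Cxcl12; median log2 fold change 0.64), against 9.47% of 16346 tested genes. In replicates 3 and 4 alone, 3 of 10 rose (Lmo4, Zfp36l1 and Igfbp4; median 0.19), against 6.35% of 15178 tested genes. Lmo4 had a log2 fold change of 0.61 in replicates 1 and 2 and 0.56 in replicates 3 and 4, and Zfp36l1 of 0.65 in either. Ldha had 0.71 and 0.14, Acot7 0.91 and 0.24, and Cxcl12 1.77 and 0.05 in the same order. Whether the pairs of replicates differ was not tested. The libraries themselves differed along the same split. Exon counts made up 62.2, 66.9, 76.5 and 76.2% of all tags in Wfs1KO replicates 1 to 4. In WT replicates 1 to 4 they made up 65.3, 60.0, 73.3 and 71.9%. The part of this difference in the result was not tested. With Wfs1KO replicates 1 and 2 left out against all 4 WT libraries, a choice made after seeing the data, Igfbp4 alone of the 10 rose (0.64, SE 0.16, edgeR's adjusted p = 0.0205), against 7.98% of all genes, while Lmo4 and Zfp36l1 had values of 0.41 and 0.48 (adjusted p = 0.140 and 0.0875). In the same fit Ldha was at 0.23, Acot7 at 0.42, Mgst1 at 0.15, Arap2 at 0.33 and Cxcl12 at 0.04, and Slc16a1 and Rest were at -0.41 and -0.0413. Without Wfs1KO replicate 1 alone, Acot7, Mgst1 and Arap2 were at 0.49, 0.12 and 0.29, none of them called. With 1 library left out, 3 of 10 rose without Wfs1KO replicate 1 (8.6% of all genes) or WT replicate 2 (9.2%). Without Wfs1KO replicate 3, 5 rose (8.84%), and without WT replicate 1 there was 1 (8.51%).

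**Figure D2:**
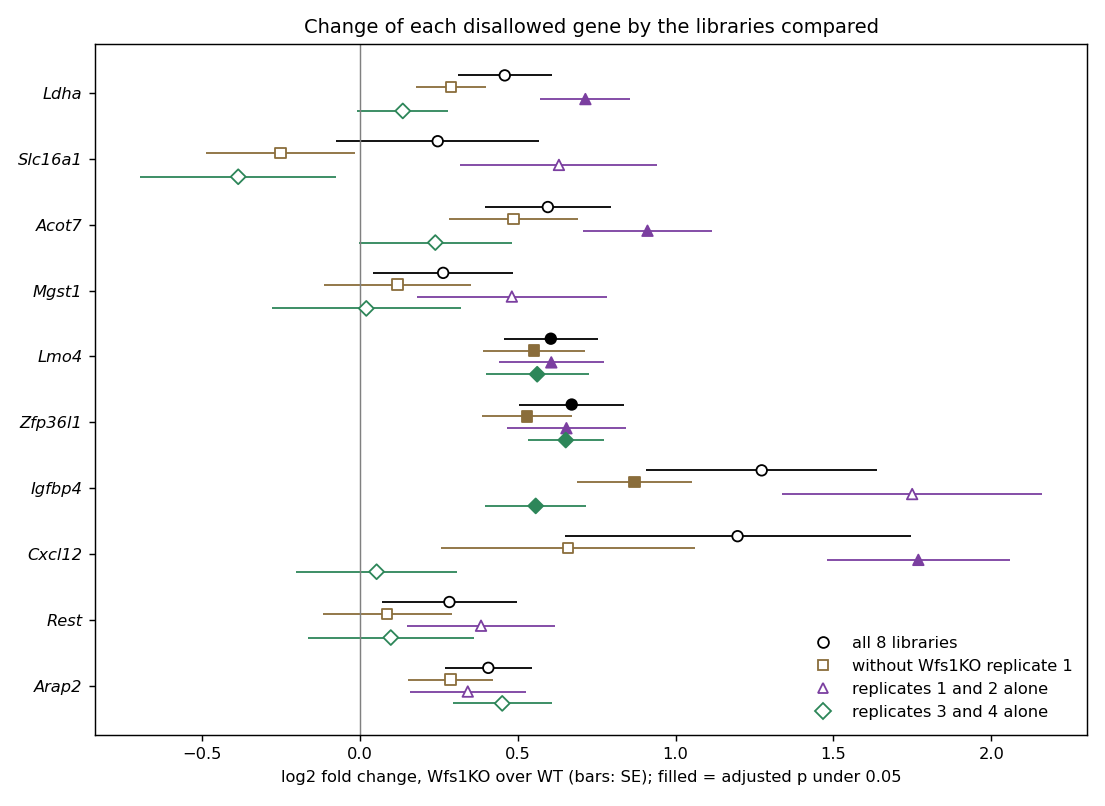
Log2 fold change, Wfs1KO over WT (horizontal axis, bars are SE), of the 10 disallowed genes from edgeR fits to all 8 libraries, without Wfs1KO replicate 1, to replicates 1 and 2 alone and to replicates 3 and 4 alone; filled symbols have an adjusted p under 0.05. Lmo4 and Zfp36l1 are filled in all 4 fits, whereas Cxcl12 is at 1.77 in replicates 1 and 2 and at 0.05 in replicates 3 and 4.

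Markers of vessels were higher in the same Wfs1KO islets. The 16 endothelial markers summed to 1049, 922, 1087 and 1003 CPM in Wfs1KO replicates 1 to 4, against 695, 685, 775 and 709 CPM in WT replicates 1 to 4, with no overlap. Of them 13 rose (median log2 fold change 0.50), with Kdr the most abundant, and none was at 0 in any library. Pericyte markers summed to 315 to 356 CPM in Wfs1KO and 205 to 228 CPM in WT islets, and 6 of the 10 tested rose, with Rgs5 the most abundant and Cnn1 at 0 in Wfs1KO replicate 4. The median of 0.50 of the endothelial list stood beside that of 0.53 of the disallowed genes, and the part of the vessels in the result was not tested.

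Stromal and macrophage markers varied between the libraries of a genotype and overlapped between genotypes. The 12 stromal markers summed to 165, 123, 88.6 and 98.5 CPM in Wfs1KO replicates 1 to 4, against 64.4, 67.1, 82.7 and 140.3 CPM in WT replicates 1 to 4, and 1 of 11 tested rose (Pdgfrb, the most abundant, log2 fold change 0.54), while Mfap4 was at 0 in WT replicate 1. The 12 macrophage markers summed to 280, 201, 154 and 117 CPM in Wfs1KO, against 129, 186, 113 and 153 CPM in WT islets, in the same order of replicates, and 0 of 12 passed edgeR's test. Igfbp4 and Cxcl12 were highest in Wfs1KO replicates 1 and 2, and so were the stromal markers Dcn and Lum, the macrophage marker Mrc1, the endothelial marker Cldn5 and Pdgfra, a gene of the wider disallowed list, all 5 chosen after their values were seen. Other markers of these lists had other orders: of the 16 endothelial markers 7 were highest in Wfs1KO replicate 1 and 7 in Wfs1KO replicate 3, and Col3a1 was highest in WT replicate 4, at 42.5 CPM. Wfs1KO replicate 3 had the highest endothelial sum and the lowest sum of disallowed genes among the Wfs1KO libraries. The part of stromal and immune cells in the result was not tested.

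**Figure D3:**
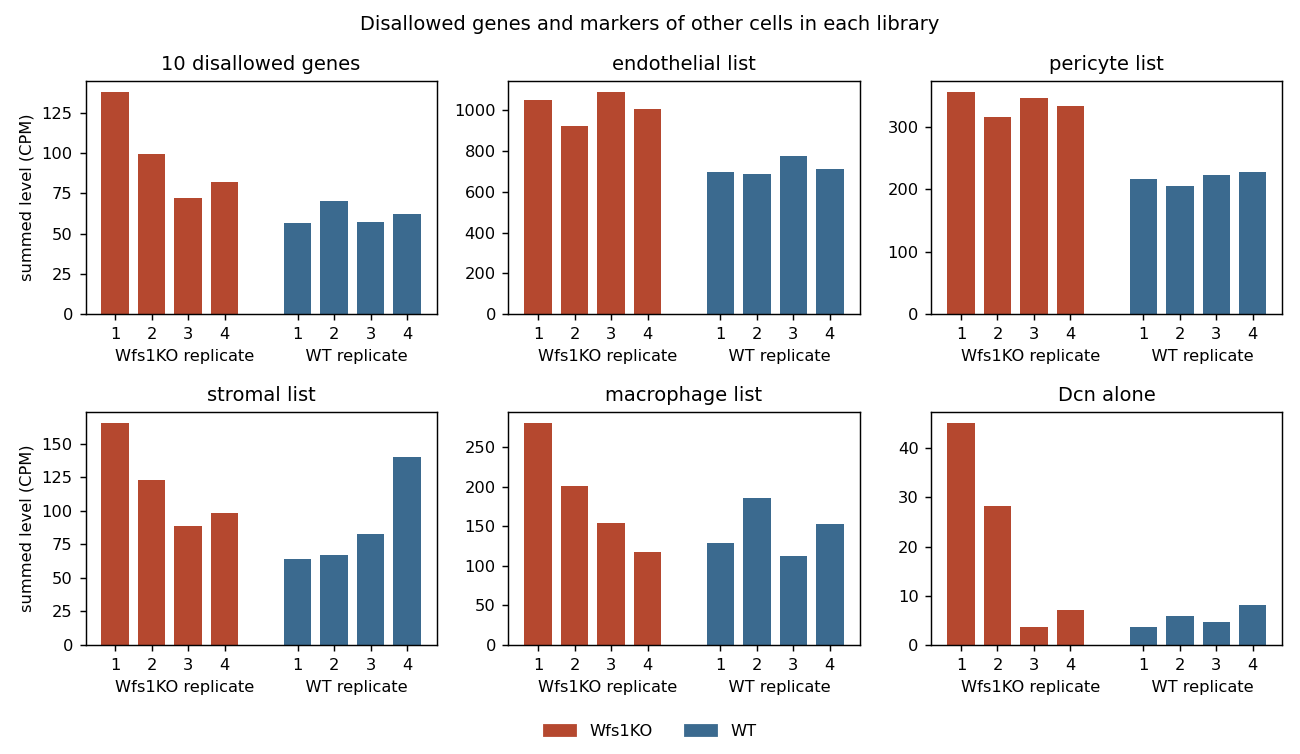
Summed level (CPM, bars from 0) of the 10 disallowed genes, of 4 marker lists of other cells and of the gene Dcn alone in each Wfs1KO (left, red) and WT (right, blue) library. Endothelial and pericyte sums separate the genotypes, whereas Dcn is at 45.1 and 28.2 CPM in Wfs1KO replicates 1 and 2 and at 8.20 CPM or less elsewhere.

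Set against the endothelial sum of its own library, no disallowed gene separated the genotypes, and 0.845% of all tested genes still had every Wfs1KO library above every WT library. This sum lay apart between the genotypes, so the division lowers any gene's ratio of Wfs1KO to WT. Lmo4 had 7.75 to 13.0 CPM per 1000 CPM of endothelial markers in Wfs1KO and 7.41 to 12.9 in WT islets, and Zfp36l1 had 16.5 to 24.3 in Wfs1KO and 13.3 to 24.6 in WT islets. Ldha, at 10.7 to 19.7 in Wfs1KO and 15.5 to 16.6 in WT islets, had a ratio of the genotype means of 0.966. For 8 of the 10 genes this ratio lay between 0.82 and 1.11. Igfbp4 and Cxcl12 had ratios of 1.68 and 1.599, with Wfs1KO replicate 1 the highest of all 8 libraries, and they too overlapped between genotypes. Per 1000 CPM of stromal markers all 10 also overlapped, at ratios of 0.738 to 1.57, and 0.324% of all tested genes had every Wfs1KO library above every WT library.

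**Figure D4:**
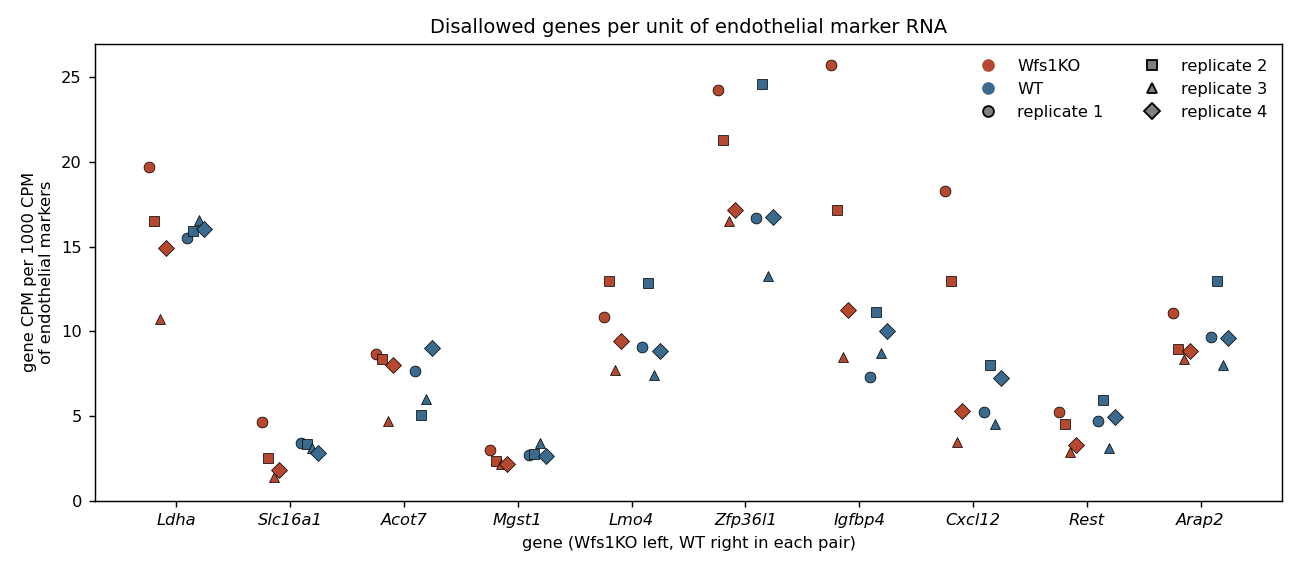
CPM of each disallowed gene per 1000 CPM of summed endothelial markers (linear axis from 0) in each Wfs1KO (left of each pair, red) and WT (right, blue) library, with symbols for replicate numbers. The genotypes overlap for all 10 genes, and Wfs1KO replicates 1 and 2 are highest for Igfbp4 and Cxcl12.

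Fits with the endothelial or the stromal score as a covariate gave the 10 genes no call. The endothelial score lay apart between the genotypes. With it as a covariate edgeR called 25 of all 15733 genes (0.0826% rose) and none of the 10. At an unadjusted p under 0.05 there were 1540 genes in all and 1 of the 10. The SEs were 0.44 for Lmo4 and 0.60 for Zfp36l1. Genotype and vessel markers cannot be told apart in such a fit, whose log2 fold changes for these genes were 1.53 and 1.04. The stromal score overlapped between genotypes, and with it edgeR called 2248 genes (7.88% rose) and 0 of the 10. At an unadjusted p under 0.05 there were then 4060 of all 15733 genes and 4 of the 10. With this score Lmo4 was at 0.57 (SE 0.19, edgeR's adjusted p = 0.0608) and Zfp36l1 at 0.60 (SE 0.21, adjusted p = 0.105). With the level of Dcn as a covariate, added after seeing the data, 2476 genes were called (8.72% rose) and Igfbp4 was the 1 of 10 that rose (0.64, SE 0.15, adjusted p = 0.00873), with Cxcl12 at 0.08. Dcn was chosen after its values were seen and was high in Wfs1KO replicates 1 and 2, as was Cxcl12. A fit with it therefore cannot decide which of the 10 genes changed.

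In a wider list of 11 further disallowed genes 2 rose and none fell, against 10.4% and 8.49% of all tested genes. All 11 had a log2 fold change above 0, with a median of 0.36. Of all 15733 tested genes 8283 were above 0, and their median was 0.01. Oat, which encodes the mitochondrial enzyme ornithine aminotransferase, had 22.0, 18.2, 20.1 and 16.7 CPM in Wfs1KO replicates 1 to 4, against 10.04, 10.5, 12.2 and 11.4 CPM in WT replicates 1 to 4. The genotypes lay far apart in every library, without the peak in Wfs1KO replicate 1 seen for Igfbp4 and Cxcl12 (log2 fold change 0.81, SE 0.10, edgeR's adjusted p = 8.29e-05). Yap1, a co-activator of the Hippo pathway that beta cells switch off early in development, had 11.2, 10.9, 10.8 and 13.3 CPM in Wfs1KO replicates 1 to 4, against 7.94, 7.85, 9.32 and 7.12 CPM in WT replicates 1 to 4 (log2 fold change 0.53, SE 0.11, adjusted p = 0.00376). Oat and Yap1 kept their calls in all 8 sets with 1 library left out and with the stromal score as a covariate. They also kept them with Dcn as a covariate and with Wfs1KO replicates 1 and 2 left out, both added after seeing the data. Neither was called with the endothelial or pericyte score, and Yap1 did not pass in replicates 3 and 4 alone. Hk1, the low-Km hexokinase gene, had a value of 0.31 (edgeR's adjusted p = 0.0635). Its Wfs1KO replicate 1 was at 1.48 times the WT mean, and the other Wfs1KO libraries together at 1.15 times. For Maf these values were 3.86 and 1.20, and for Pdgfra 3.55 and 1.29. Neither Maf nor Pdgfra was called. Tst and Hsd11b1 were instead highest in Wfs1KO replicate 2. These genes were named after their values were seen.

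In the authors' deposited table of their own comparison, 5 of the 10 genes had an adjusted p under 0.05, against 3043 of all 24537 genes. The 24537 include genes with too few reads to be tested here, so this is not a share of tested genes. The 5 were Ldha (0.0288), Acot7 (0.0386), Lmo4 (0.00349), Zfp36l1 (5.41e-04) and Igfbp4 (0.00487). The same 5 rose when the counts were tested with DESeq2 here, against 10.4% of 14975 tested genes. In either direction DESeq2 called 2992 of these 14975 genes (20%).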

How the data were processed

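Per the labels, poly(A) RNA of islets was made into libraries with a NEBNext Ultra II RNA kit. The submitters' processing notes name STAR 2.6.0a, HOMER 4.11.1 and the build mm10. The deposited values are raw counts in exons of RefSeq genes, per the file headers. The log2 fold changes and p-values that the authors deposited come from their own comparison, for which the submitters' processing notes name DESeq2.

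Counts were tested with edgeR 4.0.16 in R 4.3.3 (filterByExpr with minimum count 10 and minimum total 15, TMM, robust quasi-likelihood F-test). DESeq2 1.42.0 and limma 3.58.1 gave alternatives. CPM use TMM-scaled library sizes, and RPKM divide them by exon length. The fit was run on all genes and tested on simulated data. Depth was 15810830 to 27057617 exon counts per library, and the common biological coefficient of variation was 10.7%. The p-values measure the spread between islet samples, which may be technical.

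The genes, lists, alternatives and tests were chosen with earlier results of these data known. Named were the 10 genes, called genes of the wider list, and from each related list up to 3 called genes with the smallest adjusted p and the most abundant gene. From each list for non-endocrine cells the most abundant gene was taken; those of acinar, ductal and Schwann cells are not described. What the replicate numbers of the labels stand for is not given. Across genes, the deviations from the genotype mean of samples with the same number correlated at 0.153, 0.443, 0.269 and 0.188 for replicates 1 to 4 (genes are not independent replicates). The numbers were therefore taken to pair the samples in a further fit, with the replicate number as a block. The main fit to all libraries had no block and did not pair them. Besides Acot7, the block changed the call of no disallowed gene.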

Additional observations from a re-analysis of the deposited data

Results flagged for a closer look

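Among 68 groups of 4 samples examined, 3 had a sample far from the other 3, where chance gives about 1 in 20. Mgst1 had 2.63 CPM in WT replicate 3, against 1.90 CPM in the nearest other WT library. Mapk8ip1 had 125.5 CPM in Wfs1KO replicate 3, against 111.9 CPM in the nearest other Wfs1KO library. The summed level of the alpha cell markers was 26115 CPM in Wfs1KO replicate 3, against 19627 CPM in the nearest other Wfs1KO library.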

How the results depend on the processing

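Of 15733 tested genes, edgeR called 2970, and the number called under other choices was 1744 (962 rose, 782 fell) at a threshold of 0.01 and 1846 (964 and 882) in replicates 3 and 4 alone. It was 25 (13 and 12) with the endothelial score as a covariate, 29 (17 and 12) with the endothelial and stromal scores and 0 (0 and 0; 1001 at an unadjusted p under 0.05) with the pericyte score, which like the endothelial score lay apart between genotypes. With 1 library left out in turn it was 2387 to 2734 (1354 to 1460 rose, 1019 to 1299 fell). With the replicate number as a block 2932 genes were called, among them 3 disallowed genes, Acot7 being the one added.

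Of the 10 disallowed genes, 2 were called over all libraries. The number was 5 under DESeq2 (10.4% of all genes rose), under limma-voom (11.3%), with no filter on low counts (6.66%) and in replicates 1 and 2 alone (9.47%), 6 at a threshold of 0.10 (14%) and 0 at 0.01 (6.11%). It was 4 with the acinar score as a covariate (9.3%) and with a block of replicates 1 and 2 against 3 and 4 (12%), and 0 with the endothelial, stromal, pericyte or both the endothelial and stromal scores. It was 1 with the Dcn level as a covariate or with Wfs1KO replicates 1 and 2 left out, both added after seeing the data, and 1 to 5 with 1 library left out. Of the 11 genes of the wider list 2 were called, against 18.9% of all tested genes in either direction. The number was 4 with no filter (11.6%) or at a threshold of 0.10 (25.5%), 6 in replicates 1 and 2 (18%) and 1 in replicates 3 and 4 (12.2%). It was 0 with the endothelial, pericyte or endothelial and stromal scores (0.159%, 0% and 0.184%), and 2 to 5 with 1 library left out (15% to 17.3%).

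The log2 fold change turned negative for Slc16a1 with the endothelial (-0.27), stromal (-0.17), pericyte (-1.58), endothelial and stromal (-0.45) and Dcn (-0.38) covariates, in replicates 3 and 4 alone (-0.39), without Wfs1KO replicate 1 (-0.25, within -0.25 to 0.41 over the 8 sets with 1 library left out) and without Wfs1KO replicates 1 and 2 (-0.41). It did so for Mgst1 with the endothelial (-0.70), pericyte (-1.08) and endothelial and stromal (-0.77) scores, for Rest with Dcn (-0.0414) or without Wfs1KO replicates 1 and 2 (-0.0413), and with the pericyte score for Ldha (-0.37), Acot7 (-0.61) and Oat (-0.12). Rcor3 and Gjd2 turned to 0.068 and 0.010 with the pericyte score. The cause was not tested. Slc16a1, Mgst1 and Rest rested on 27 to 157 counts per library. The stromal sum ratio, Wfs1KO over WT, was 1.16 to 1.67 with 1 library left out, and the endothelial one 1.37 to 1.46.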
